A study of Mus musculus with 12 samples.

Results

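Semaphorins are secreted or membrane-bound guidance cues that steer axons, migrating neurons and blood vessels, mostly by repulsion. Secreted semaphorins bind neuropilins, which pair with plexins to pass the signal into the growth cone, whereas most transmembrane semaphorins bind plexins directly. In the developing cortex and retina these proteins sort axon tracts and keep neurites within their layers. Their mRNAs are considered here as possible partners of Ythdf1 and Ythdf2, which recognise the methylated base m6A in cytoplasmic mRNA. Ythdf1 is known for promoting translation of bound transcripts and Ythdf2 for promoting their decay.

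The transcripts described are the neuropilin receptors Nrp1 and Nrp2, the secreted ligands Sema3a and Sema3c, and the transmembrane ligands Sema4c, Sema4d, Sema5b, Sema6a, Sema6c and Sema6d. They were picked by gene symbol and make up 10 of the 52550 genes in the deposited tables. RNA was measured by RIP-seq, in which an antibody pulls a protein and its bound RNA out of a cell lysate and the recovered RNA is sequenced beside the lysate's own RNA, the input. All mice were wild-type C57BL/6. The 6 groups, with 2 libraries each, were anti-Ythdf1 immunoprecipitates (IPs), anti-Ythdf2 IPs and inputs of the retina at postnatal day 0, and the same set from the cortex at embryonic day 12.5. Cells were dissociated before lysis. Since the samples include no IP with a control antibody, enrichment is relative to input alone. The labels do not say whether replicates came from separate animals or litters, so p-values measure only the spread between these libraries.

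Library totals ran from 19530226 to 40515980 counts, of which protein-coding genes received between 1676910 and 13621485 and the 10 genes together between 956 and 11799. Levels are given as normalised CPM, counts scaled to the library size after edgeR's TMM adjustment, which sets aside the most divergent genes. Defining markers matched the labelled tissue in 11 of 12 libraries. Summed retina markers were at 288 to 370 normalised CPM in the retina libraries and at 11.4 to 27.5 in the cortex libraries. The 11 markers of embryonic cortex, several of which the newborn retina also expresses, summed to 124 to 227 in the retina libraries and to 695 to 1070 in the cortex IPs, and 1 or 2 of them had 0 counts in each retina library. The library labelled cortex input replicate 1 stood apart. Its summed markers of embryonic cortex reached 54.4, against 899 in cortex input replicate 2. Markers of oligodendrocytes were at 1610 against 6.29, of mature neurons at 1440 against 14.5, of microglia at 254 against 3.87, of astrocytes at 261 against 33.7, of endothelial cells at 165 against 26.5 and of erythroid cells at 1050 against 99.6, while those of meninges were at 40.1 against 122. Across genes, the Spearman correlation between the cortex inputs was 0.585, against 0.908 to 0.978 between replicates of the other groups. Most enrichment, tissue and input results of the 10 genes that rest on it are therefore given with and without it. The per-length levels, the likeness values and the further genes named between inputs use all libraries. In bulk tissue, fewer cells of a type and less RNA per cell cannot be told apart.

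GGACT is the commonest form of the m6A consensus. On the sense strand of 1 principal transcript per gene (GENCODE M21, build GRCm38), the 10 held a median of 7.5 GGACT matches, against 3 over 14153 protein-coding genes. Their median transcript length was 4564 bases, against 3054, and per kilobase they held a median of 1.55 matches, against 1.05, with Sema3a below it at 0.843 and Nrp1 the highest at 2.22. Within 200 bases of the stop codon, where m6A is known to gather, 8 of the 10 held a match, against 39.6% of all genes. Nrp2 and Sema3a were the exceptions. No comparison with genes of matched length was made. m6A was not measured in these samples, so a match describes the letters alone. The match nearest the stop codon is shown for Sema6c, Sema4c and Nrp2, which passed a test in the retina, and for Nrp1 and Sema3a, which did not. Each lies in the 3′ UTR, the match is in capitals, and each is written on the transcript's strand.
Sema6c, chr3:95173333-95173353, plus strand, 53 bases after the stop codon: gccttcccGGACTccgagact
Sema4c, chr1:36549338-36549358, minus strand, 189 bases after: gctcaccaGGACTtcagcctc
Nrp2, chr1:62815843-62815863, plus strand, 214 bases after: gcccaccaGGACTgtggtggc
Nrp1, chr8:128502866-128502886, plus strand, 60 bases after: aggcatggGGACTctgttact
Sema3a, chr5:13600677-13600697, plus strand, 1082 bases after: gaggcataGGACTcgctcatg

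In the newborn retina, the question was which of these mRNAs were recovered with either protein beyond their share of the input. Sema3c had 0 counts in all 6 retina libraries, which leaves 9 genes with a measurable enrichment. With the Ythdf1 antibody, 3 of the 9 were higher in the IP than in the input by edgeR's quasi-likelihood test (adjusted p under 0.05, Benjamini-Hochberg over all genes tested), namely Sema6c, Sema4c and Sema6a. Over all 18458 genes tested, 3.57% were called higher in this comparison, and 6.14% of protein-coding genes at least as long as the shortest of the 10. With the Ythdf2 antibody, 2 of the 9 were higher, Nrp2 and Sema4c, against 0.282% of all genes and 0.528% of the long ones. None was called lower with either antibody, where 5.23% of all genes were with Ythdf1 and 1.76% with Ythdf2. The log2 fold change was above 0 for all 9 genes with both antibodies, at a median of 1.48 with Ythdf1 and 1.08 with Ythdf2. Over all genes the median was 0.00 with both, and over the long protein-coding genes it was 0.42 with Ythdf1 and 0.37 with Ythdf2. Both IP libraries lay above both inputs for 8 of the 9 genes with Ythdf1, where 31.4% of all genes did so, and for 5 of the 9 with Ythdf2, where 26.9% did. Of the 7008 long protein-coding genes, 3211 did so with Ythdf1 and 2995 with Ythdf2, larger shares than over all genes. As a share of all protein-coding counts, the 10 genes took 0.118% in both Ythdf1 IPs, 0.109% in both Ythdf2 IPs, and 0.0508% and 0.0344% in the inputs.

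**Figure D1:**
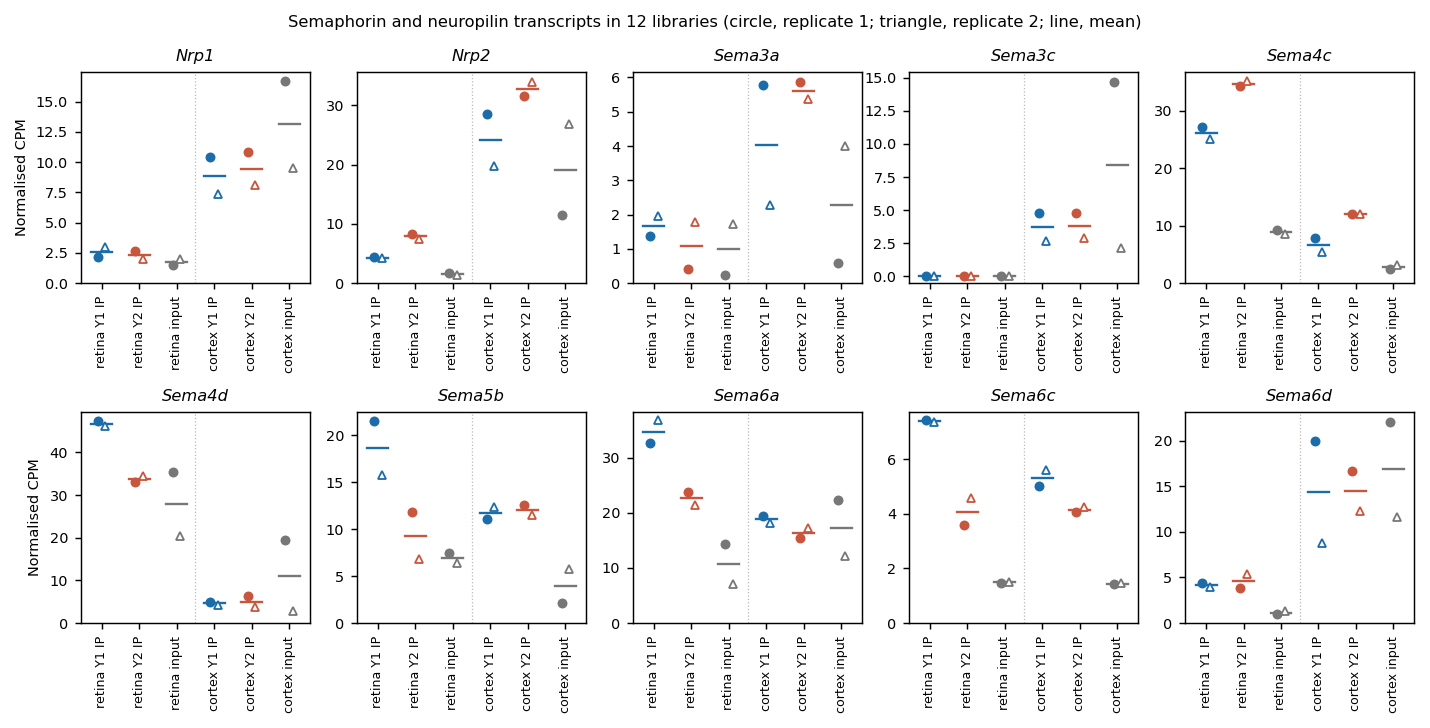
Normalised CPM (linear axis, one scale per gene) of the 10 transcripts in each of the 12 libraries, by tissue and library type (Y1, Ythdf1; Y2, Ythdf2). Circles are replicate 1, triangles replicate 2 and lines the mean of both. In the retina, Sema6c stands at 7.43 and 7.37 in the Ythdf1 IPs, above 1.46 and 1.51 in the inputs, and the cortex inputs of Sema3c and Sema4d are far apart.

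Of the receptors, Nrp2 passed with Ythdf2, and Nrp1 passed with neither antibody. Nrp2, which binds Sema3C and Sema3F as well as vascular endothelial growth factors, had 4.41 and 4.16 normalised CPM in the retina Ythdf1 IPs, 8.34 and 7.46 in the Ythdf2 IPs, against 1.67 and 1.41 in the inputs. All 4 IP libraries were above both inputs, and the Ythdf2 IPs were the highest. The Nrp2 enrichment was 2.36 log2 units with Ythdf2 (SE 0.49, adjusted p = 0.0334, edgeR) and 1.48 with Ythdf1 (SE 0.48, adjusted p = 0.0752, edgeR), so only the Ythdf2 value passed. The inputs rest on 48 and 40 counts and the Ythdf2 IPs on 165 and 142. Nrp1, the receptor for Sema3A, had 2.19 and 2.95 in the Ythdf1 IPs, 2.68 and 2.00 in the Ythdf2 IPs, against 1.49 and 2.01 in the inputs. The Ythdf1 IPs were just above both inputs, and the Ythdf2 IPs overlapped them. Neither difference passed, and with at most 78 counts a library the 95% interval of the Nrp1 log2 enrichment ran from -0.46 to 1.56 with Ythdf1 and from -0.60 to 1.44 with Ythdf2. Both receptors are known from blood vessels. The 8 endothelial markers summed to 10.4 and 8.50 normalised CPM in the retina Ythdf1 IPs, 3.24 and 3.0 in the Ythdf2 IPs and 4.48 and 2.89 in the inputs. Most of this was Cldn5, Emcn had 0 counts in every retina library, and each library had 1 to 5 of the 8 at 0. The part of endothelial RNA in the receptor values was not tested.

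Of the secreted ligands, Sema3a, a repellent for many axons, was near the limit of detection in the retina. It had 1.38 and 1.96 normalised CPM in the Ythdf1 IPs, 0.404 and 1.79 in the Ythdf2 IPs, against 0.243 and 1.72 in the inputs. The replicates of the inputs and of the Ythdf2 IPs lay further apart than the groups, and the libraries overlapped in both comparisons. Its counts were between 7 and 52, and enrichment could not be told from 0 (log2 0.76 with Ythdf1, 95% interval -1.38 to 2.91, and 0.15 with Ythdf2, -2.04 to 2.35).

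Among transmembrane ligands, Sema6c and Sema4c had retina replicates closer to each other than to any other group. Sema6c is a member of the group of semaphorins that signal through A-type plexins. In the retina it had 7.43 and 7.37 normalised CPM in the Ythdf1 IPs, 3.59 and 4.57 in the Ythdf2 IPs, against 1.46 and 1.51 in the inputs. The 2 Ythdf1 IPs were the highest, the Ythdf2 IPs intermediate, and no library overlapped between groups. The log2 enrichment was 2.31 with Ythdf1 (SE 0.42, adjusted p = 0.0142, edgeR) and 1.45 with Ythdf2 (SE 0.41, adjusted p = 0.101, edgeR), of which the Ythdf1 value passed.

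Sema4c, a ligand of plexin-B2, had 27.2 and 25.0 normalised CPM in the Ythdf1 IPs, 34.3 and 35.1 in the Ythdf2 IPs, against 9.18 and 8.59 in the inputs. By edgeR with all 12 libraries it was the only one of the 10 to pass with both antibodies, though DESeq2 called Nrp2, Sema6c and Sema6d with both as well. Here the Ythdf2 IPs were the highest. Its log2 enrichment was 1.55 with Ythdf1 (SE 0.39, adjusted p = 0.0339, edgeR) and 1.97 with Ythdf2 (SE 0.40, adjusted p = 0.0313, edgeR). D430040D24Rik, a gene on the opposite strand, shares 334 exonic bases with Sema4c, and the strand setting of the counting is not given in the sources used here. With the counts of both genes summed, a choice made after seeing the data, the enrichment was 1.42 with Ythdf1 (adjusted p = 0.0476, edgeR) and 1.76 with Ythdf2 (adjusted p = 0.0482, edgeR). Over 23 alternatives the adjusted p of Sema4c ran from 0.000157 to 0.949 with Ythdf1 and from 4.9e-07 to 1 with Ythdf2, and both calls were lost with no filter on low counts.

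Sema6a, a ligand of plexin-A2 and plexin-A4 that helps order layers of the mouse retina, had 32.6 and 36.8 normalised CPM in the Ythdf1 IPs, 23.8 and 21.4 in the Ythdf2 IPs, against 14.3 and 7.08 in the inputs. The inputs differed from each other by more than the replicates of either IP, but all 4 IPs were above them. The log2 enrichment was 1.70 with Ythdf1 (SE 0.48, adjusted p = 0.0468, edgeR), just inside the threshold, and 1.08 with Ythdf2 (SE 0.47, adjusted p = 0.275, edgeR). The Ythdf1 call held in only 4 of 22 alternatives. Among others, it was lost with edgeR's RLE size factors, with protein-coding genes alone and with no filter on low counts. Library totals in place of TMM, and replicate number as a block, lost it too.

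Sema6d, a ligand of plexin-A1 that takes part in guiding retinal axons at the optic chiasm in mice, had 4.41 and 3.93 normalised CPM in the Ythdf1 IPs, 3.84 and 5.41 in the Ythdf2 IPs, against 0.939 and 1.37 in the inputs. All IPs were above both inputs, which rest on 27 and 39 counts. The log2 enrichment was 1.85 with Ythdf1 (SE 0.54, adjusted p = 0.0535, edgeR) and 2.00 with Ythdf2 (adjusted p = 0.0891, edgeR), and neither passed.

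Sema5b, which restricts neurites in the inner mouse retina, had 21.5 and 15.7 normalised CPM in the Ythdf1 IPs, 11.8 and 6.78 in the Ythdf2 IPs, against 7.44 and 6.41 in the inputs. The Ythdf1 IPs were above both inputs, whereas 1 Ythdf2 IP lay between them. The log2 enrichment was 1.43 with Ythdf1 (adjusted p = 0.0947, edgeR) and 0.42 with Ythdf2 (adjusted p = 0.733, edgeR). Sema4d, the ligand of plexin-B1, had 47.3 and 46.3 in the Ythdf1 IPs, 33.1 and 34.6 in the Ythdf2 IPs, against 35.5 and 20.4 in the inputs. Only the Ythdf1 IPs were above both inputs, and the log2 values of 0.74 with Ythdf1 and 0.28 with Ythdf2 did not pass.

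These retina counts depend on the libraries in the fit. All 12 libraries share 1 estimate of the spread, and the cortex inputs are the least alike. Leaving out either cortex input, not replicate 1 alone, raised the number of these genes called in the retina with each antibody. Without the library labelled cortex input replicate 1, 6 genes were higher with Ythdf1, where 15.2% of all genes were, namely Nrp2, Sema4c, Sema5b, Sema6a, Sema6c and Sema6d. In the Ythdf2 IPs, 5 were higher then (Nrp2, Sema4c, Sema6a, Sema6c and Sema6d), where 6.54% of all genes were. From the 6 retina libraries alone, 6 were higher with Ythdf1 against 13.4% of all genes, and 4 with Ythdf2 against 7.30%. Of the 7008 long protein-coding genes, 1609 and 987 were higher in that fit, again larger shares than over all genes. DESeq2 also called 6 and 4, where it called 7.96% of all genes higher with Ythdf1 and 2.83% with Ythdf2. Library totals in place of TMM, and limma on log2 FPKM, gave 0 with each antibody. On log2(FPKM + 1), limma called 25 of all 18458 genes with Ythdf1 and 20 with Ythdf2, in either direction. On log2(FPKM + 0.1) it called 28 and 16. These limma results therefore do not describe these genes alone. No share over all genes is given for library totals. Leaving out any 1 retina input or retina Ythdf1 IP gave 0 called with Ythdf1, and leaving out any 1 of the 10 libraries other than the cortex inputs gave 0 with Ythdf2.

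**Figure D2:**
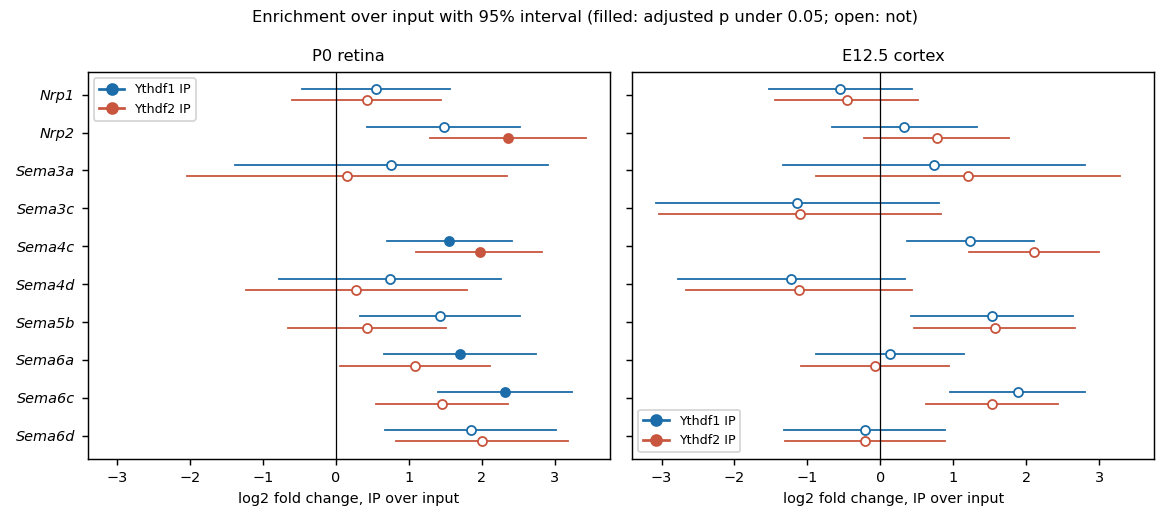
Log2 fold change of IP over input for each transcript with its 95% interval, in retina (left) and cortex (right), with Ythdf1 above Ythdf2 within each gene. Filled points have an adjusted p under 0.05 (edgeR). In the retina all points lie above 0 and 5 are filled, in the cortex none is filled, and Sema3c has no retina point because it had 0 counts there.

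In the embryonic cortex none of the 10 genes passed with either antibody by edgeR, at an unadjusted p under 0.05 for 3 with Ythdf1, where 15.6% of all genes were, and 3 with Ythdf2, where 19.3% were. Over all genes 0.00% were called lower in either comparison, and 0.00542% were called higher with Ythdf1 and 0.0108% with Ythdf2. DESeq2 called 3 with each antibody (Sema4c, Sema5b and Sema6c), where it called 2.36% of all genes higher with Ythdf1 and 4.08% with Ythdf2. The limma fits on log2 FPKM called 0 of the 10. Over all 18458 genes they called at most 4 with Ythdf1 and 180 with Ythdf2. The median log2 enrichment of the 10 was 0.23 with Ythdf1 and 0.35 with Ythdf2, against 0.00 and 0.04 over all genes. Both IPs were above both inputs for 3 of the 10 with Ythdf1, where 21.1% of all genes were, and for 5 of the 10 with Ythdf2, where 27.02% were. Of the 7008 long protein-coding genes, 1477 and 2127 were.

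Sema4c, Sema5b and Sema6c were the genes whose cortex IPs were above both inputs with both antibodies. Sema6c had 5.0 and 5.59 normalised CPM in the cortex Ythdf1 IPs, 4.06 and 4.24 in the Ythdf2 IPs, against 1.42 and 1.45 in the inputs. Replicates were close in every group, in the inputs too, although input replicate 1 holds 12 counts and replicate 2 holds 131. The log2 enrichment was 1.88 with Ythdf1 (SE 0.42, adjusted p = 0.157, edgeR) and 1.53 with Ythdf2 (SE 0.42, adjusted p = 0.1, edgeR). Without the library labelled cortex input replicate 1 these were 1.86 (adjusted p = 0.0273, edgeR; 1.76% of all genes called higher) and 1.51 (adjusted p = 0.0374, edgeR; 2.86% called higher). Over 22 alternatives the adjusted p ran from 0.000577 to 1 with Ythdf1 and from 0.00296 to 0.981 with Ythdf2.

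Sema4c had 7.79 and 5.38 normalised CPM in the cortex Ythdf1 IPs, 12.1 in both Ythdf2 IPs, against 2.49 and 3.08 in the inputs. As in the retina, its Ythdf2 IPs were the highest. The log2 enrichment was 1.23 with Ythdf1 (SE 0.40, adjusted p = 0.201, edgeR) and 2.11 with Ythdf2 (SE 0.41, adjusted p = 0.0807, edgeR), and against input replicate 2 alone the Ythdf1 value was 1.10 (adjusted p = 0.122, edgeR) and the Ythdf2 value 1.97 (adjusted p = 0.00755, edgeR; 1.17e-06 to 0.981 over 23 alternatives). Sema5b had 11.1 and 12.3 in the Ythdf1 IPs, 12.6 and 11.5 in the Ythdf2 IPs, against 2.13 and 5.74 in the inputs. The IPs were alike, and the inputs differed by more than the IPs. Its log2 enrichment of 1.53 with Ythdf1 and 1.57 with Ythdf2 was 1.03 and 1.06 against input replicate 2 alone, and passed in neither case by edgeR. Against input replicate 1 alone it was 2.38 (adjusted p = 0.00303, edgeR) and 2.49 (adjusted p = 0.002, edgeR), and DESeq2 with both inputs gave adjusted p = 0.0333 with Ythdf1 and 0.0149 with Ythdf2.

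For the receptors and secreted ligands in the cortex, the inputs were too far apart for the groups to separate in most cases. Nrp2 had 28.5 and 19.8 normalised CPM in the Ythdf1 IPs, 31.6 and 34.0 in the Ythdf2 IPs, against 11.5 and 26.8 in the inputs. Nrp1 had 10.4 and 7.39 in the Ythdf1 IPs, 10.8 and 8.13 in the Ythdf2 IPs, against 16.7 and 9.55 in the inputs. Input replicate 1 was the lowest of the 6 libraries for Nrp2 and the highest for Nrp1, so leaving it out moved the Ythdf1 enrichment of Nrp2 to -0.15, against 0.33 with both inputs. For Nrp1 the enrichment without it was -0.10 with Ythdf1 and -0.01 with Ythdf2, against -0.55 and -0.46 with both inputs. Sema3a had 5.78 and 2.28 in the Ythdf1 IPs, 5.88 and 5.36 in the Ythdf2 IPs, against 0.593 and 3.99 in the inputs. Its enrichment without input replicate 1 was 0.04 with Ythdf1 and 0.49 with Ythdf2, against 0.74 and 1.20 with both inputs. Sema3c, which attracts or repels axons through either neuropilin, had 4.78 and 2.66 in the Ythdf1 IPs, 4.78 and 2.91 in the Ythdf2 IPs, against 14.7 and 2.14 in the inputs. Without input replicate 1 its enrichment was 0.81 with Ythdf1 and 0.84 with Ythdf2, against -1.14 and -1.10 with both inputs. For Sema3c, input replicate 1 was above all IPs and replicate 2 below them. The same held for Sema4d, at 5.0 and 4.35 in the Ythdf1 IPs, 6.33 and 3.73 in the Ythdf2 IPs, against 19.4 and 2.80 in the inputs. Its log2 enrichment with Ythdf1 was -1.22 with both inputs, 0.74 against replicate 2 alone (adjusted p = 0.401, edgeR) and -2.12 against replicate 1 alone (adjusted p = 0.00213, edgeR), and over 22 alternatives the adjusted p ran up to 1.

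Sema6a and Sema6d overlapped their inputs in the cortex. Sema6a had 19.5 and 18.2 normalised CPM in the Ythdf1 IPs, 15.4 and 17.2 in the Ythdf2 IPs, against 22.3 and 12.2 in the inputs. Sema6d had 20 and 8.80 in the Ythdf1 IPs, 16.7 and 12.3 in the Ythdf2 IPs, against 22.1 and 11.6 in the inputs. In both genes input replicate 1 was the highest library and replicate 2 lay below or among the IPs. The log2 enrichment of Sema6a was 0.13 with Ythdf1 and -0.08 with Ythdf2, and 0.63 and 0.42 without input replicate 1. That of Sema6d was -0.21 with each antibody, and 0.32 with each without input replicate 1. When the library labelled cortex input replicate 1 was left out, 8 of the 10 genes were above 0 with Ythdf1 and 9 with Ythdf2, at medians of 0.68 and 0.67. Over all genes 9118 and 9532 of 18458 were above 0, at medians of 0.00 and 0.05. The long protein-coding genes had medians of 0.03 and 0.22. Of 12 further semaphorins 11 were above 0 with each antibody, at medians of 1.28 and 1.02.

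**Figure D3:**
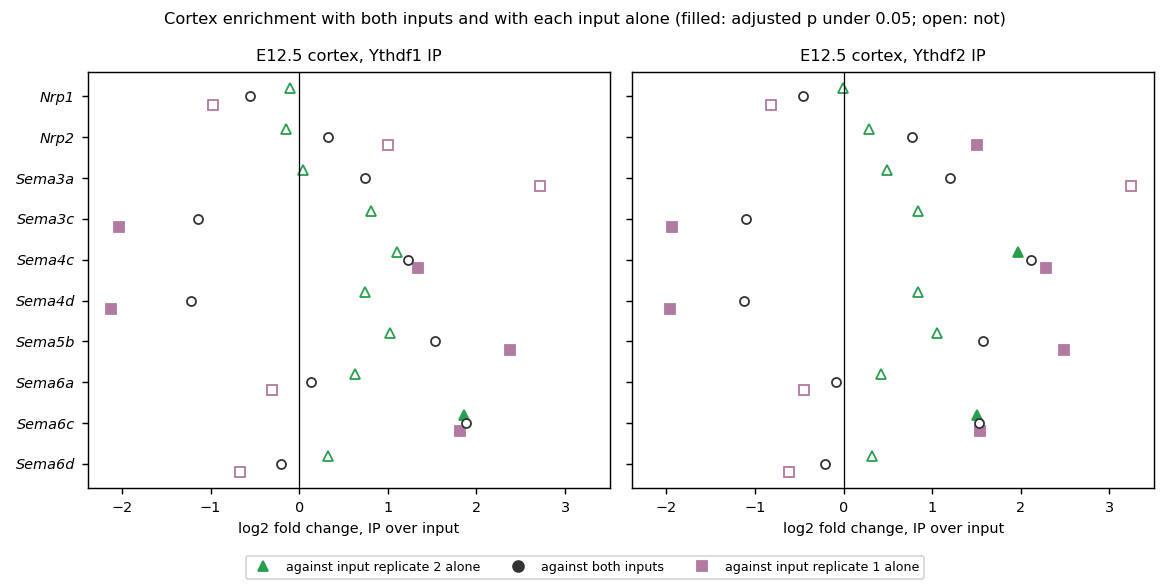
Log2 fold change of cortex IP over input for each transcript, against input replicate 2 alone (triangles), both inputs (circles) and input replicate 1 alone (squares), with Ythdf1 on the left and Ythdf2 on the right. Filled points have an adjusted p under 0.05 (edgeR). Sema6c stays between 1.5 and 1.9, whereas Sema3c and Sema4d change sign with the input used.

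Whether retina enrichment differed from cortex enrichment was tested as the difference of the log2 fold changes. None of the 9 genes passed with either antibody by edgeR (0.00% of all genes called higher and 0.00542% lower with Ythdf1, 0.00% and 0.0325% with Ythdf2), and DESeq2 and limma also called 0. At an unadjusted p under 0.05 there were 2 with Ythdf1 and 2 with Ythdf2, where 16.6% and 11.3% of all genes were. Sema6d had the largest difference, 2.06 log2 units more in the retina with Ythdf1 (SE 0.73, 95% interval 0.46 to 3.67, adjusted p = 0.217, edgeR) and 2.21 with Ythdf2 (SE 0.74, 0.60 to 3.81, adjusted p = 0.34, edgeR). Without the library labelled cortex input replicate 1 these were 1.53 and 1.68, and Nrp2 then differed by 1.62 with Ythdf1 (adjusted p = 0.0682, edgeR) and 2.07 with Ythdf2 (adjusted p = 0.0523, edgeR), the lowest adjusted p of Nrp2 over 21 alternatives in each. Without cortex input replicate 2, 3 genes passed with each antibody, Sema4d, Sema6a and Sema6d with Ythdf1 and Sema4d, Sema6d and, with less enrichment in the retina, Sema5b with Ythdf2. Over all genes 9.44% were then called higher and 18.4% lower with Ythdf1, and 8.29% and 15.1% with Ythdf2. For Sema6c the difference was 0.44 with Ythdf1 (95% interval -0.82 to 1.69) and -0.07 with Ythdf2 (-1.33 to 1.19), and for Sema4c 0.33 (-0.88 to 1.53) and -0.14 (-1.33 to 1.05). These intervals span more than a doubling in at least 1 direction. Without the library labelled cortex input replicate 1 the differences with Ythdf1 and Ythdf2 were 0.45 and -0.06 for Sema6c. For Sema4c they were 0.45 and -0.01.

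The antibodies were compared directly within each tissue, Ythdf1 IP over Ythdf2 IP. By edgeR 0 of the genes passed in either tissue, at 0.00% of all genes in both directions, and DESeq2 and limma called 0 of them. Over all 18458 genes, DESeq2 called 663 in the retina and 72 in the cortex, and limma at most 1 and 30. Unadjusted p by edgeR was under 0.05 for 0 of the genes in the retina, where 11.98% of all genes were, and 1 in the cortex, where 4.004% were. From the 6 retina libraries alone 0 of the 9 passed, where 2.57% of all genes were called higher and 5.55% lower. Without the library labelled cortex input replicate 1 it was again 0 in the retina, where 2.31% and 4.31% were. In the retina the largest differences were 1.00 log2 units for Sema5b (SE 0.50, 95% interval -0.08 to 2.09), -0.88 for Nrp2 (SE 0.46, -1.90 to 0.13) and 0.86 for Sema6c (SE 0.40, -0.02 to 1.73). In each of these 3 genes the libraries of the antibodies did not overlap, with Ythdf1 above for Sema5b and Sema6c and Ythdf2 above for Nrp2. Over the 9 genes, both Ythdf1 IPs were above both Ythdf2 IPs for 4 (Sema4d, Sema5b, Sema6a and Sema6c), as in 32.6% of all genes, and below for 2 (Nrp2 and Sema4c), as in 25.4%. In the cortex Sema4c had the largest difference of -0.88 (SE 0.39, 95% interval -1.72 to -0.03, adjusted p = 1, edgeR), with both Ythdf1 IPs below both Ythdf2 IPs. That held for 2 of the 10 (Nrp2 and Sema4c), as in 22.00% of all genes, and Ythdf1 was above for 2, as in 19.7%.

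The inputs show how much of each transcript the tissues held. The newborn retina held less Nrp1, Nrp2, Sema3c and Sema6d and more Sema4c than the embryonic cortex, and age and tissue differ together, so their parts cannot be told apart. Sema3c passed the filter on low counts through cortex libraries alone, so it is described without a test and left out of the next counts. By edgeR 3 of the other 9 genes were lower, where 4.01% of all genes were, and 1 was higher, where 3.51% were. Both retina inputs lay below both cortex inputs for 3 of the 9, as in 18.4% of all genes, and above them for 4, as in 24.2%. Nrp2 was lower in retina input (log2 -3.64, SE 0.51, adjusted p = 0.00338, edgeR), with 1.67 and 1.41 normalised CPM against 11.5 and 26.8 in cortex input. Sema6d was lower too (log2 -3.85, SE 0.57, adjusted p = 0.00462, edgeR), as was Nrp1 (log2 -2.90, SE 0.49, adjusted p = 0.00784, edgeR), with both retina inputs below both cortex inputs in each. Sema3c was listed at 0 in the retina inputs, against 14.7 and 2.14 in the cortex inputs. Taking 3 counts per library as the limit a count of 0 allows, its mean was at least 80.2-fold lower in retina input than in cortex input, and at least 20.4-fold lower than in cortex input replicate 2 alone. It was at least 35.5-fold lower in the retina Ythdf1 IPs than in the cortex ones and at least 24.8-fold lower in the Ythdf2 IPs. These limits cover counting error only. Sema4c was 1.66 log2 units higher in retina input (SE 0.40, adjusted p = 0.0315, edgeR), at 9.18 and 8.59 against 2.49 and 3.08. That call held in 7 of 22 alternatives, with adjusted p from 0.000117 to 0.846, and was lost with no filter on low counts and without either retina input.

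These 4 calls held when the analysis left out the library labelled cortex input replicate 1, when Sema4d was also higher in retina input, by 3.32 (SE 0.50, adjusted p = 0.000432, edgeR; 0.000432 to 0.672 over 21 alternatives). In that fit 10.04% of all genes were called higher and 11.95% lower. With both inputs the Sema4d difference was 1.36 (SE 0.71, adjusted p = 0.245, edgeR). With library totals in place of TMM none of the 9 was called, and without retina input replicate 1 only Nrp2. Without retina input replicate 2 the calls were Nrp1, Nrp2 and Sema6d. Markers of meninges and fibroblasts, cells around brain and vessels, were at 2.02 and 2.57 in the retina inputs, against 40.1 and 122 in the cortex inputs, and those of endothelial cells were at 4.48 and 2.89 against 165 and 26.5. Their part in the lower receptor and Sema3c levels was not tested.

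**Figure D4:**
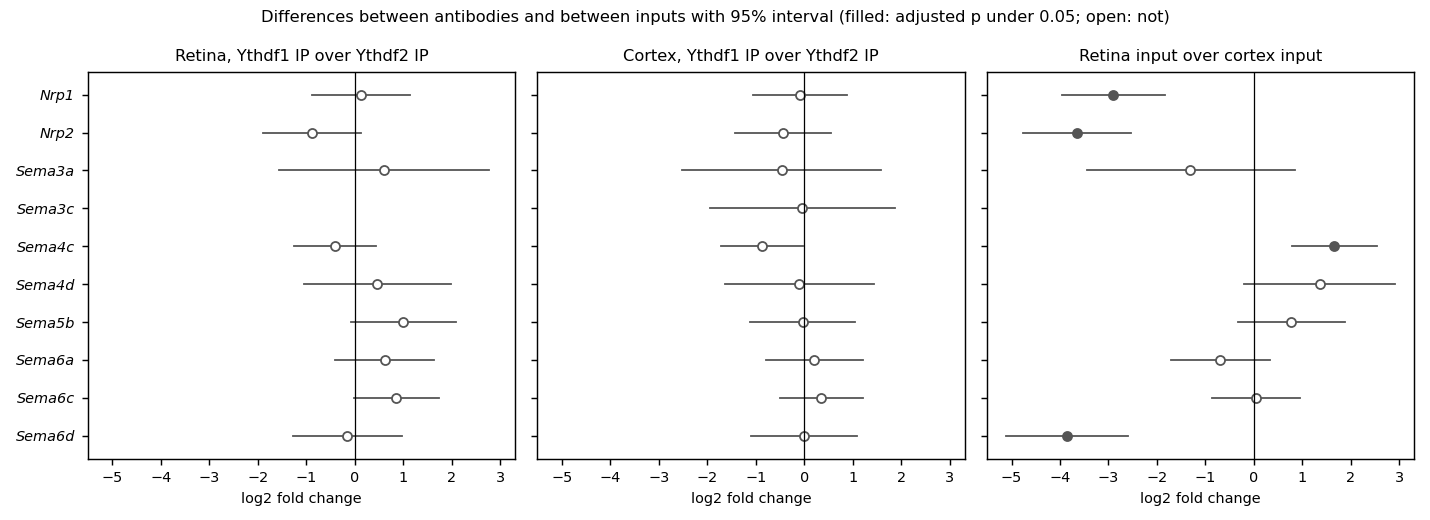
Log2 differences with 95% intervals for Ythdf1 IP over Ythdf2 IP in retina (left) and cortex (middle) and for retina input over cortex input (right), on 1 shared axis. Filled points have an adjusted p under 0.05 (edgeR). No antibody difference is filled, while Nrp1, Nrp2 and Sema6d lie at -2.90 or lower between inputs; Sema3c is left out on the right because it had 0 counts in retina.

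Levels of different genes can be set side by side only per length, as in the deposited FPKM. In retina input Sema4d led with 3.09 ± 1.01 FPKM (SD, n = 2), then Sema4c with 1.39 ± 0.0133, Sema6a with 0.86 ± 0.367 and Sema5b with 0.698 ± 0.0347. Sema6c followed at 0.172, Nrp1 at 0.128, Nrp2 at 0.0923, Sema6d at 0.0791 and Sema3a at 0.0519, and Sema3c was at 0. The libraries of neighbours overlapped between Sema6a and Sema5b, between Nrp2 and Sema6d, and between Sema6d and Sema3a. In the retina Ythdf1 IPs Sema4d was again the highest, at 5.33 ± 0.0546 FPKM, and in the Ythdf2 IPs Sema4c was, at 6.15 ± 1.12. In the cortex Ythdf2 IPs Nrp2 at 6.53 ± 2.68 and Sema4c at 6.16 ± 2.28 had the highest means, but their libraries overlapped each other and those of Sema4c overlapped Sema6a at 4.40 ± 1.94. In cortex input all neighbours in the order overlapped. Which gene lengths the FPKM uses is not given in the sources used here.

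The patterns of the receptors across all 12 libraries were set beside those of 5933 protein-coding genes by the root mean square difference of centred log2 normalised CPM. Nearest to Nrp1 were Myt1l (0.20), Nedd4l (0.27) and Xylt1 (0.31), where the spread of Nrp1 itself was 1.15. Nearest to Nrp2 were Hk2 (0.31), Epha4 (0.44) and Atp7a (0.54), where its own spread was 1.54. The receptors were 0.85 apart, which put Nrp2 at rank 496 for Nrp1 and Nrp1 at rank 106 for Nrp2. These values describe likeness of pattern alone.

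The plexins, the signalling partners of these ligands and receptors, were tested in the same fit. In the retina 7 of the 8 plexins tested, of 9 listed, were higher in the Ythdf1 IPs by edgeR. Over all genes 3.57% were, and 6.14% of the long protein-coding genes. The median log2 enrichment of the plexins was 2.02, against 0.42 over the long protein-coding genes. Plxnb2, the receptor of Sema4C, had 158 ± 7.25 normalised CPM in the Ythdf1 IPs, against 25.2 ± 3.14 in the inputs (SD, n = 2 each; log2 2.65, SE 0.50, adjusted p = 0.0159, edgeR). Plxnb1, the receptor of Sema4D, had 71.9 ± 11.5 against 19.9 ± 3.11 (log2 1.85, SE 0.43, adjusted p = 0.0268, edgeR). Plxna3 was the one that did not pass by edgeR. DESeq2 called all 8, where it called 7.96% of all genes higher, and limma called 0. With Ythdf2 the median was 1.45, against 0.37 over the long protein-coding genes, and none passed by edgeR. An unadjusted p under 0.05 was found for 6, where 16.5% of all genes had one. DESeq2 called 5, where it called 2.83% of all genes higher, and limma called 0.

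Among 12 further semaphorins, Sema4b was higher in the retina Ythdf1 IPs, with 31.1 ± 0.283 normalised CPM against 6.18 ± 1.97 in the inputs (SD, n = 2 each; log2 2.33, SE 0.56, adjusted p = 0.0297, edgeR). With Ythdf1 edgeR called 1 of the 12, where 3.57% of all genes were higher, DESeq2 called 2 and limma 0. The median of the 12 was 1.20 with Ythdf1 and 0.71 with Ythdf2. With Ythdf2 none passed by edgeR, and 2 had an unadjusted p under 0.05, where 16.5% of all genes did. DESeq2 called 1 and limma 0. Between inputs, Sema3f was 3.67 log2 units higher in retina (adjusted p = 0.0191, edgeR) and Sema4g 1.96 (adjusted p = 0.0269, edgeR), while Plxna4 was lower in retina (log2 -3.18, adjusted p = 0.00944, edgeR). Of the signalling list, Dpysl4 was higher in retina input (2.52), and Chl1 (-4.23) and Cntn2 (-2.64) were lower. Over all genes 3.51% were called higher and 4.01% lower. These input values rest on both cortex inputs, which differed: Sema3f had 0 and 97 counts in replicates 1 and 2. Chl1 had 12.8 ± 12.1 normalised CPM in them (SD, n = 2).

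Of 36 co-receptors and signalling proteins tested, 3 were higher and 3 lower in the retina Ythdf1 IPs, against 3.57% and 5.23% of all genes. From the 6 retina libraries alone these were 13 and 3, against 13.4% and 15.8%, and without the library labelled cortex input replicate 1 they were 12 and 3, against 15.2% and 15.1%. The kinase receptors Erbb2 and Kdr and the signalling gene Arhgap35 were higher, by 2.57, 2.06 and 2.53 log2 units. The small GTPase genes Rhoa and Rap1a and the actin-severing protein gene Cfl1 were lower, at -2.33, -3.91 and -2.18. The list's median was 0.49 with Ythdf1 and 0.52 with Ythdf2. With Ythdf2 edgeR called 0 and 12 had an unadjusted p under 0.05, where 16.5% of all genes did. DESeq2 called 4 and limma 0. In the cortex none of the 3 lists had a gene called with either antibody by edgeR. Unadjusted p was under 0.05 there for 6 plexins with each antibody, 3 further semaphorins with each, and 10 and 12 signalling genes with Ythdf1 and Ythdf2. Over all genes it was for 15.6% and 19.3%. DESeq2 called 3 and 5 plexins, 1 and 1 further semaphorins and 7 and 8 signalling genes with Ythdf1 and Ythdf2, and limma called 0. With cortex input replicate 1 left out, edgeR called 1 plexin, 2 signalling genes higher and 1 lower with Ythdf1, where 1.76% of all genes were higher and 2.27% lower. With Ythdf2 it called 1 further semaphorin, 2 signalling genes higher and 3 lower, where 2.86% and 5.50% were.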

How the data were processed

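The deposited files hold read counts per gene and FPKM, one table each for 12 libraries. Per the submitters' processing notes, the authors used STAR 2.5, HTSeq and build GRCm38; per the labels, libraries came from the TruSeq Stranded RNA kit and a Magna RIP kit. How the deposited FPKM was derived from the counts is not given in the sources used here. Ensembl ids were matched to GENCODE M21 for names, positions and lengths, 52403 of 52550 (147 unmatched).

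Counts were fitted with edgeR 4.0.16 (R 4.3.3): genes passing filterByExpr (minimum count 10, total 15; 18458 genes, of which 14199 protein-coding), TMM scaling, 1 mean for each of 6 groups over all 12 libraries, robust quasi-likelihood tests with 6 residual degrees of freedom, two-sided, Benjamini-Hochberg over all genes, called at adjusted p under 0.05. Standard errors are the absolute log2 fold change divided by the root of the test's F. The 9 comparisons were each IP with its input, the antibodies within a tissue, the tissue difference of enrichment, and the inputs. Checks used DESeq2 1.42.0, limma 3.58.1 on log2(FPKM + 1) and log2(FPKM + 0.1), and leaving out each library. The procedure was also run on simulated data, with the same spread in every library and no library that stood apart. These settings differ from the real libraries, so that run does not check the calls given here. All 10 genes passed the filter, Sema3c through the cortex libraries alone. An interval is 95% and covers the spread the model estimates.

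All 10 genes are named. From each further list (other semaphorins, plexins, co-receptors and signalling) the genes called may be named. Likeness was ranked among genes with a mean of at least 5 normalised CPM. Markers were summed per list and library. The genes and lists were chosen with earlier results of these data known. Replicate numbers were not used as pairs in the main fit. Same-numbered libraries' deviations from their group means correlated at -0.0313 to 0.0582 over 6 pairs. With so few libraries this cannot show whether an IP and an input came from the same lysate.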

Additional observations from a re-analysis of the deposited data

How the results depend on the processing

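Of 1851 values of the 10 genes under the alternatives, 1699 kept their call, 101 lost it and 51 gained one. No called value changed sign, and 97 uncalled values did. Values that stayed uncalled are among the 1699, so that number does not describe how stable the calls were. With Ythdf1 the retina call held in 15 of 22 alternatives for Sema6c and 4 of 22 for Sema6a. For Sema4c it held in 7 of 23 with each antibody, and for Nrp2 with Ythdf2 in 7 of 22. Sema3c passed the filter on low counts through the cortex libraries alone and is left out of the counts between inputs. The number of the genes called in the retina was 3 with Ythdf1 and 2 with Ythdf2, in the cortex 0 with each and between inputs 4. With no filter on low counts it was 1 in retina Ythdf2 and 1 in cortex Ythdf2. With library totals in place of TMM it was 0 and 0 in the retina and 0 between inputs, and the median log2 fold change of all genes then moved to 0.13 in retina Ythdf2, -0.58 in cortex Ythdf1, 0.72 in cortex Ythdf2 and -1.17 between inputs. DESeq2 called 6, 4, 3 and 3 in retina Ythdf1, retina Ythdf2, cortex Ythdf1 and cortex Ythdf2. limma on FPKM called 0 in these and 0 between inputs with both pseudocounts. In any comparison limma called at most 180 of all 18458 genes, so its 0 for these genes and for the further lists says little about them. The 6 libraries of the retina alone gave 6 and 4. Leaving out 1 library moved the number called, both down and up in the retina. The share called over all genes moved as well where a cortex input was left out, so such shifts do not describe these genes alone. Where 1 library was left in a group it was assumed to vary like the others. The highest cortex counts, 5 and 6, came without cortex input replicate 2 and hold Sema3c and Sema4d as lower in the IPs. In that fit the only cortex input is the library that stood apart. No share over all genes is given for those cortex counts, so they cannot be told from a rise in calls over all genes. Except where stated, the cause of the shifts between settings was not tested.

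With replicate number as a block within each tissue, 1 gene was called in retina Ythdf1 (Sema6c) and 0 in retina Ythdf2. Between inputs Nrp1, Nrp2 and Sema6d were called, with Sema3c left out. One block over both tissues, added after seeing the data, gave the same counts of 1 and 0 in the retina. Apart from Sema3c, the lowest counts in retina input were those of Nrp1, Nrp2, Sema3a, Sema6c and Sema6d, at 7 to 57 a library. How far depth limited their results was not tested.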
